A study of Mus musculus with 24 samples.

Results

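The genes described here are 10 transcription factors known for their work in blood vessel endothelium, taken from the 20555 genes measured in cells sorted from mouse brain slices. Their rows were found by symbol, with no threshold on a measured value: the ETS factors Erg, Fli1, Ets1 and Ets2, the SOXF factors Sox7, Sox17 and Sox18, and the forkhead factors Foxo1, Foxq1 and Foxf2. All 10 had a row in both the endothelial and the microglial table. Slices had received exosomes, the small membrane vesicles that cells release, or phosphate-buffered saline (PBS) for 2 days, and the series title concerns CEMIP, a hyaluronan-binding protein, in tumour exosomes and brain metastasis. The 4 groups of each cell type were exosomes of the knockouts KO1 and KO2, exosomes called WT, and PBS. Exosomes carried the green membrane dye PKH67 and were given at 5 µg per slice. The knockout lies in the cells that gave the exosomes, not in the mouse, and the labels name neither the deleted gene nor the donor cells. Strain and age of the mice are not given in the sources used here.

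Endothelial cells (EC) were gated as CD45- CD31+ and microglia (MG) as CD45+ CD11b low CD49d low. The labels call all samples sorted for exosome signal, PBS samples included, so the gate of the PBS samples is unclear. The endothelial table held 10 libraries: 3 of KO1, 2 of KO2 (lettered B and C), 2 of WT (A and B) and 3 of PBS. The microglial table held 11: 3 each of KO1, KO2 and WT, and 2 of PBS (A and B). The 3 remaining labelled samples were not analysed here. What the letters mark (an animal, a culture, a preparation) is not stated in the labels, and the p-values may therefore reflect technical spread alone.

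ETS factors bind DNA around a GGAA core, and many endothelial genes carry such sites, so that Erg, Fli1 and Ets1 together maintain endothelial identity. SOXF factors act in vascular development and arterial specification, partly through the Notch pathway. Forkhead factors have separate roles: Foxo1 is held in the cytoplasm by AKT signalling and promotes endothelial quiescence when nuclear, while Foxq1 and Foxf2 are enriched in brain vessels, where Foxf2 is needed for the blood-brain barrier in mice.

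Levels are given as normalised counts, recovered from the deposited log2 values. Differences keep the deposited log2 scale, which compresses change most at low counts, but also at the endothelial levels of factors such as Foxo1 and Erg. For exosome minus PBS, Foxo1 was -0.35 on this scale and -0.87 as log2 of the recovered count plus 10. Erg was 0.12 and 0.59. The differences are therefore not log2 fold changes, and the scale differs between the 2 cell types. The defining endothelial markers were present in every endothelial library: Pecam1 (CD31) lay between 42620 and 56200 normalised counts and Cdh5 (VE-cadherin) between 17427 and 24657. The leukocyte gene Ptprc (CD45) was at 0 to 289.7 normalised counts there. The myeloid gene Itgam (CD11b) was at 1298 in KO1 B, 438 in KO2 B and 1226 in WT B, against at most 9.58 in PBS, and Spi1, the macrophage lineage factor, reached 417 in KO2 C. The 11 microglial markers summed to 86.1 to 3245 in exosome endothelial libraries and to 784 to 1034 in PBS ones. Microglia held Spi1 at 7797 to 9946 and Ptprc at 1528.5 to 3982 normalised counts, whereas P2ry12, a marker of resting microglia, was at 0 to 12.1 there and so does not tell the cell types apart here. Estimated depth was 18.3 to 35.6 M reads per endothelial library, lowest in PBS A and PBS B (18.3 and 18.8 M), and the read depth of microglia is unknown. Genes above the floor numbered 9235 (WT A) to 11531 (KO1 B) in exosome endothelial libraries and 11305 to 11952 in PBS ones. KO1 A, with 9516, came next after WT A. The part of this difference in the values of the factors was not tested. Choroid plexus and ependyma markers, 11 in the list, summed to 2938 to 284620 normalised counts in the exosome endothelial libraries, against 67.6 to 4725 in the PBS ones. KO1 C had the lowest exosome sum, 2938, then KO2 C with 17394, and the other 5 had at least 168350. For the 10 endothelial markers the sum lay between 251540 and 291680 in exosome libraries and between 299550 and 325640 in PBS libraries. In such bulk samples fewer cells of a type and less RNA per cell cannot be told apart.

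In endothelial cells all 10 factors were expressed, passed the filter of a mean of at least 100 normalised counts, and ranged between 789 (Erg in KO1 B) and 39279 (Ets1 in KO2 B) normalised counts. No factor passed the test in any of the 3 comparisons. Foxo1 had the most marked difference, a mean level in the exosome groups of 0.562 times the PBS mean. Among the factors below PBS, Foxq1 came next at 0.622 times. Erg was on the other side, at 1.61 times, a change of about the same size as that of Foxq1. Ets1 was nearly level, at 1.00 times.

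**Figure D1:**
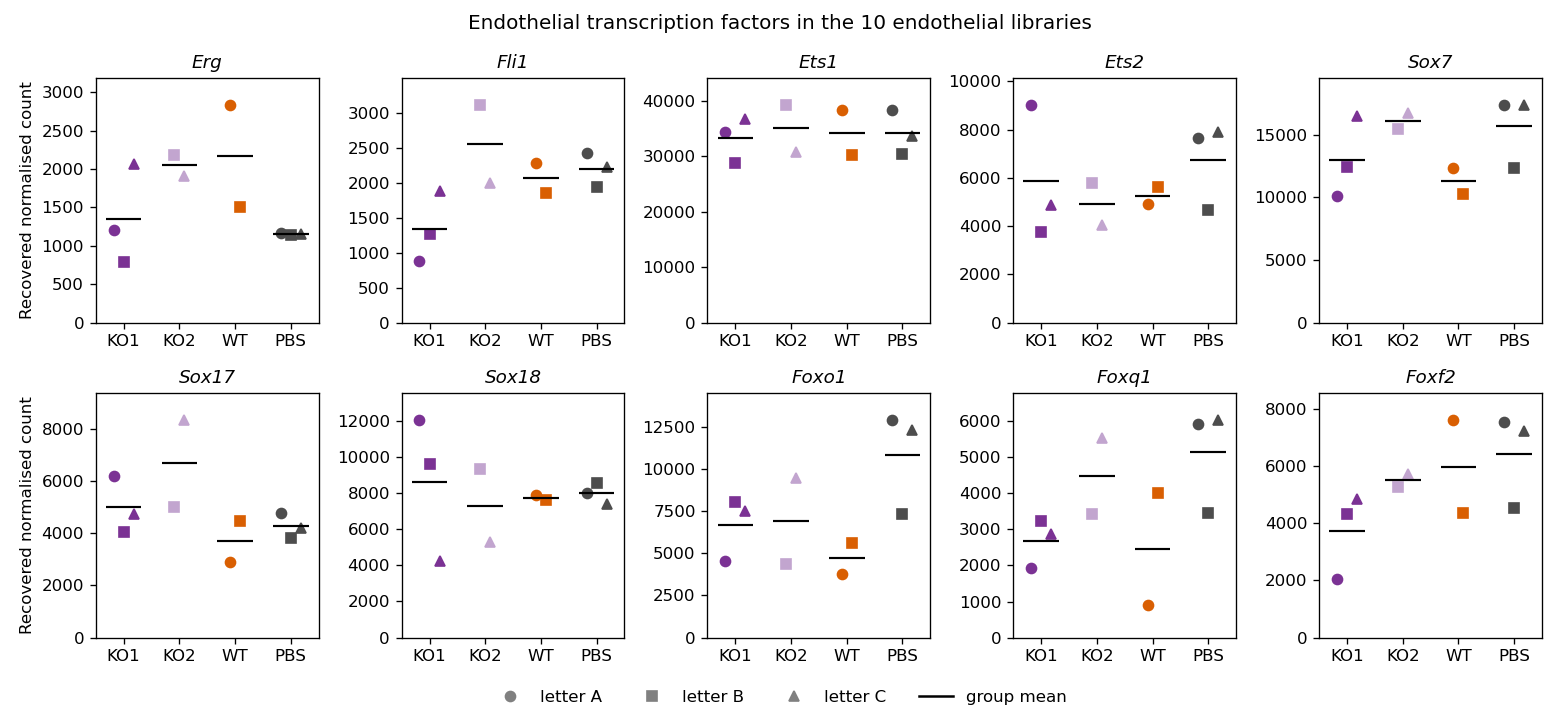
Recovered normalised counts (vertical axes, starting at 0) of the 10 transcription factors in the 10 endothelial libraries. Each point is a library, its shape the letter, and the black line the group mean; Foxo1 lies between 3803 and 5636 in WT libraries, below the lowest PBS value of 7339.9.

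Among the forkhead factors, Foxo1 (chromosome 3, 52268337 to 52350109, plus strand, GRCm38.p6) measured 4536, 8067 and 7529 normalised counts in KO1 libraries A, B and C, and 4347 and 9502 in KO2 libraries B and C. It measured 3803 and 5636 in WT libraries A and B, against 12963, 7339.9 and 12344 in PBS libraries A, B and C. Both WT libraries lay below all 3 PBS libraries, while 3 of the 5 knockout libraries lay within the PBS range. The Foxo1 difference for exosome minus PBS was -0.35 (SE 0.116, 95% interval -0.60 to -0.09, limma adjusted p = 0.504). For WT minus PBS it was -0.47 (SE 0.152, limma adjusted p = 0.379), and for knockout minus WT it was 0.18 (SE 0.140, limma adjusted p = 0.740). Within a letter, Foxo1 was at 0.350 times PBS in KO1 A and 0.293 times in WT A. In letter B it was at 1.1 times PBS in KO1, 0.592 times in KO2 and 0.768 times in WT, and in letter C at 0.610 times in KO1 and 0.770 times in KO2. KO1 B was thus the exosome library above the PBS library of its letter. These 7 ratios share 3 PBS libraries, and the letters were not treated as pairs, so the ratios are not independent. KO1 C and KO2 C, with the lowest choroid plexus sums of the exosome libraries, held 7529 and 9502 of Foxo1, inside the PBS range of 7339.9 to 12963. KO1 B, with the highest sum, 284620, also lay inside that range at 8067. The part of choroid plexus RNA in the Foxo1 values was not tested.

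Foxq1 (chromosome 13, 31558170 to 31560976, plus strand), a forkhead gene enriched in brain endothelium, measured 1919, 3234 and 2886 normalised counts in KO1 A, B and C and 3426 and 5528 in KO2 B and C. WT A and B measured 900.4 and 4014, against 5935, 3462 and 6052 in PBS A, B and C. WT A stood lowest, and WT B, KO2 C and the PBS libraries overlapped. The 3 KO1 libraries, WT A and KO2 B lay below the PBS range, KO2 B only slightly (3426 against 3462 in PBS B). The difference was -0.23 for exosome minus PBS (SE 0.106, limma adjusted p = 0.698) and -0.34 for WT minus PBS (SE 0.139, limma adjusted p = 0.448). With 1 WT library left out, the other is taken to vary like the other groups: the Foxq1 difference for WT minus PBS was then -0.11 without WT A (limma adjusted p = 0.852) and -0.58 without WT B (limma adjusted p = 0.137). For knockout minus WT it was 0.17 (SE 0.128, limma adjusted p = 0.715), and without WT A it was -0.06.

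Foxf2 (chromosome 13, 31625816 to 31631406, plus strand), the neighbour of Foxq1, measured 2037, 4328 and 4833 normalised counts in KO1 A, B and C and 5269.9 and 5738 in KO2 B and C. WT A and B measured 7626 and 4339.6, against 7524, 4548 and 7228 in PBS A, B and C. KO1 A was lowest and WT A highest, so that no group stood clear of PBS. The Foxf2 difference was -0.13 for exosome minus PBS (SE 0.097, limma adjusted p = 0.895), -0.04 for WT minus PBS and -0.13 for knockout minus WT. Foxf2 is also a gene of brain pericytes: pericyte and smooth muscle markers summed to 432 to 8050 in exosome libraries and to 2154 to 4501 in PBS libraries, and their part was not tested.

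Of the ETS factors, Erg (chromosome 16, 95359169 to 95586600, minus strand), which sustains VE-cadherin and junction genes, measured 1200.5, 789 and 2069 normalised counts in KO1 A, B and C and 2182.4 and 1915 in KO2 B and C. It measured 2842 and 1507 in WT A and B, against 1169.6, 1138 and 1153.5 in PBS A, B and C. The PBS libraries lay close together, with an SD of 15.7, or 1.36% of their mean. Counting error of Erg by the estimated reads was 3.02% in KO1 B. The PBS values thus lay closer than counting alone would give in that library, and their SD may understate the PBS spread. WT A, WT B, KO1 A, KO1 C, KO2 B and KO2 C lay above them, KO1 A only slightly, and KO1 B lay below them. The Erg difference was 0.12 for exosome minus PBS (SE 0.072, limma adjusted p = 0.803) and 0.17 for WT minus PBS (SE 0.094, limma adjusted p = 0.566). For WT minus PBS it was 0.069 without WT A and 0.27 without WT B. For knockout minus WT it was -0.08 (SE 0.087, limma adjusted p = 0.831).

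Fli1 (chromosome 9, 32422204 to 32543432, minus strand), the closest relative of Erg, measured 887, 1269.7 and 1878 normalised counts in KO1 A, B and C and 3124 and 1997 in KO2 B and C. WT A and B measured 2282 and 1858, against 2425, 1937 and 2225 in PBS A, B and C. All 3 KO1 libraries and WT B lay below the PBS range, and KO2 B lay above it. Fli1 and Foxq1 were the 2 factors whose KO1 libraries all lay below all PBS libraries, which held for 7.9% of all tested genes. The Fli1 difference was -0.04 for exosome minus PBS (SE 0.067, limma adjusted p = 0.977), and the interval ran between -0.19 and 0.11.

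Ets1 (chromosome 9, 32636241 to 32757820, plus strand), an angiogenic ETS factor, was the steadiest of the 10. It measured 34409, 28826 and 36598 normalised counts in KO1 A, B and C and 39279 and 30729 in KO2 B and C. WT A and B measured 38299 and 30157, against 38247, 30383 and 33703 in PBS A, B and C. The 4 groups overlapped throughout, and the difference for exosome minus PBS was 0.00 (SE 0.101, limma adjusted p = 0.9998), with an interval of -0.22 to 0.22. Its highest library was 1.36 times its lowest, with a coefficient of variation of 11.4%, and 99.2% of the 9454 tested genes had a larger one. Ets1 was also above at least 99.1% of these genes in level in each library, and no comparison with genes of like level was made.

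Ets2 (chromosome 16, 95702407 to 95721049, plus strand), an ETS factor switched on by MAP kinase signalling, measured 9042, 3741 and 4886 normalised counts in KO1 A, B and C and 5773.5 and 4057 in KO2 B and C. WT A and B measured 4906 and 5621, against 7651, 4679 and 7922 in PBS A, B and C. KO1 A was highest of all and KO1 B lowest of all, so the spread within KO1 covered every other group. The Ets2 difference was -0.12 for exosome minus PBS (SE 0.103, limma adjusted p = 0.913).

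Among the SOXF factors, Sox17 (chromosome 1, 4490928 to 4497426, minus strand), which specifies arterial endothelium, measured 6203, 4062 and 4766 normalised counts in KO1 A, B and C and 5031 and 8375 in KO2 B and C. WT A and B measured 2900.3 and 4488, against 4766, 3829 and 4228 in PBS A, B and C. WT A was lowest and KO2 C highest, and 4 of the 5 knockout libraries lay above both WT libraries. The Sox17 difference for knockout minus WT was 0.21 (SE 0.098, 95% interval -0.0038 to 0.42, limma adjusted p = 0.543), and without WT A it was 0.12. For exosome minus PBS it was 0.07 (SE 0.081, limma adjusted p = 0.962).

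Sox7 (chromosome 14, 63943706 to 63950732, plus strand), a SOXF factor of developing vessels, measured 10104, 12403 and 16510 normalised counts in KO1 A, B and C and 15458 and 16770 in KO2 B and C. WT A and B measured 12376 and 10272, against 17416, 12366 and 17421 in PBS A, B and C. WT A lay just above PBS B, so that WT and PBS overlapped through that pair. The Sox7 difference was -0.23 for WT minus PBS (SE 0.123, limma adjusted p = 0.547) and 0.17 for knockout minus WT (SE 0.113, limma adjusted p = 0.682).

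Sox18 (chromosome 2, 181669837 to 181671640, minus strand), a factor of blood and lymphatic vessel development, measured 12064, 9585 and 4242 normalised counts in KO1 A, B and C and 9342 and 5263 in KO2 B and C. WT A and B measured 7885 and 7608.5, against 7989, 8542 and 7385 in PBS A, B and C. The WT and PBS libraries lay close together, and the 2 knockout libraries lettered C were lowest. The Sox18 difference was -0.02 for exosome minus PBS (SE 0.116, limma adjusted p = 0.991) and -0.01 for knockout minus WT (SE 0.141, limma adjusted p = 0.993).

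**Figure D2:**
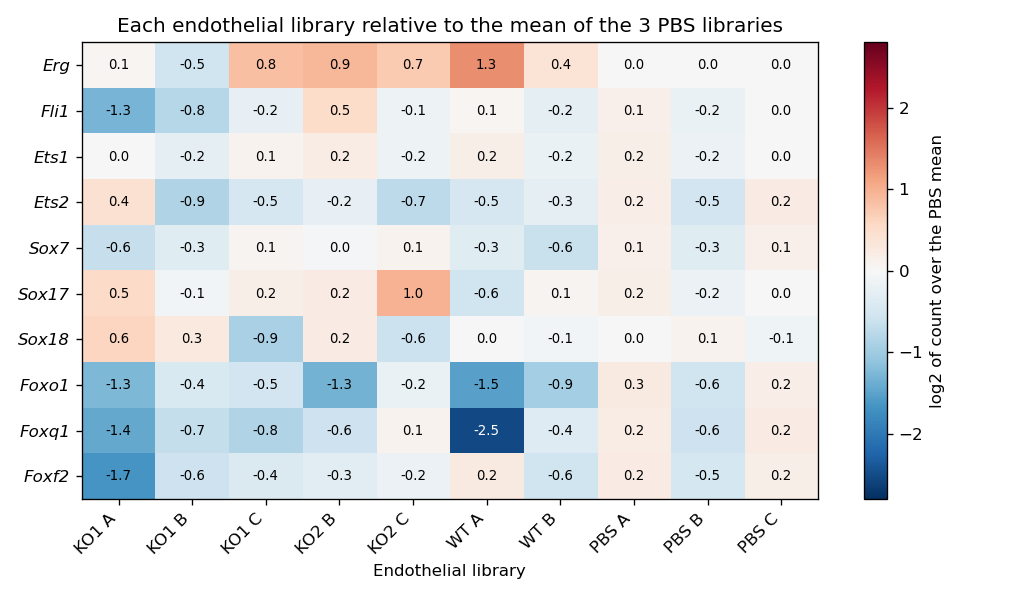
Log2 of each endothelial library's recovered normalised count over the mean of the 3 PBS libraries (colour and printed value), with factors in rows and libraries in columns. Foxq1 in WT A stands lowest at -2.52, Erg in WT A highest at 1.3, and Ets1 stays between -0.24 and 0.20.

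Over the 10 factors, 0 were called for exosome minus PBS, where 0.0% of the 9454 genes tested were called (limma, adjusted p under 0.05). At an unadjusted p under 0.05 the count was 1 factor, Foxo1, against 7.25% of all genes. For WT minus PBS 0 factors were called against 0.0106% of all genes, and 2 factors, Foxo1 and Foxq1, had an unadjusted p under 0.05 against 10.1%. For knockout minus WT 0 factors were called against 0.0212%, and 0 had an unadjusted p under 0.05 against 9.22%. The genes called across the table were Map4k2, a kinase gene, in both comparisons that use WT, and the zinc finger gene Zfp46 for knockout minus WT. Map4k2 was at 0 in both WT libraries, where it measured 1137 to 2165 in knockout libraries and 2143 to 3113 in PBS libraries. Both comparisons had 0 calls without WT A and without any 1 PBS library.

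No factor separated the 7 exosome libraries from the 3 PBS libraries, where 1.31% of all genes were higher and 1.35% lower without overlap. Between WT and PBS, Erg was higher and Foxo1 lower without overlap, against 16.5% of all genes higher and 18.3% lower. Between the knockout and WT libraries no factor separated, against 4.8% of genes higher and 4.83% lower. Exosome minus PBS and WT minus PBS share the PBS libraries, and the 2 WT comparisons share WT, so their values stand side by side and are not independent. For exosome minus PBS 3 factors were above 0 and 7 below, with a median of -0.08, where the median of all tested genes was -0.0079 and 53.2% were below 0. For WT minus PBS 2 were above and 8 below (median -0.06, all genes -0.01), and for knockout minus WT 5 were above and 5 below (median -0.0010, all genes 0.0038).

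**Figure D3:**
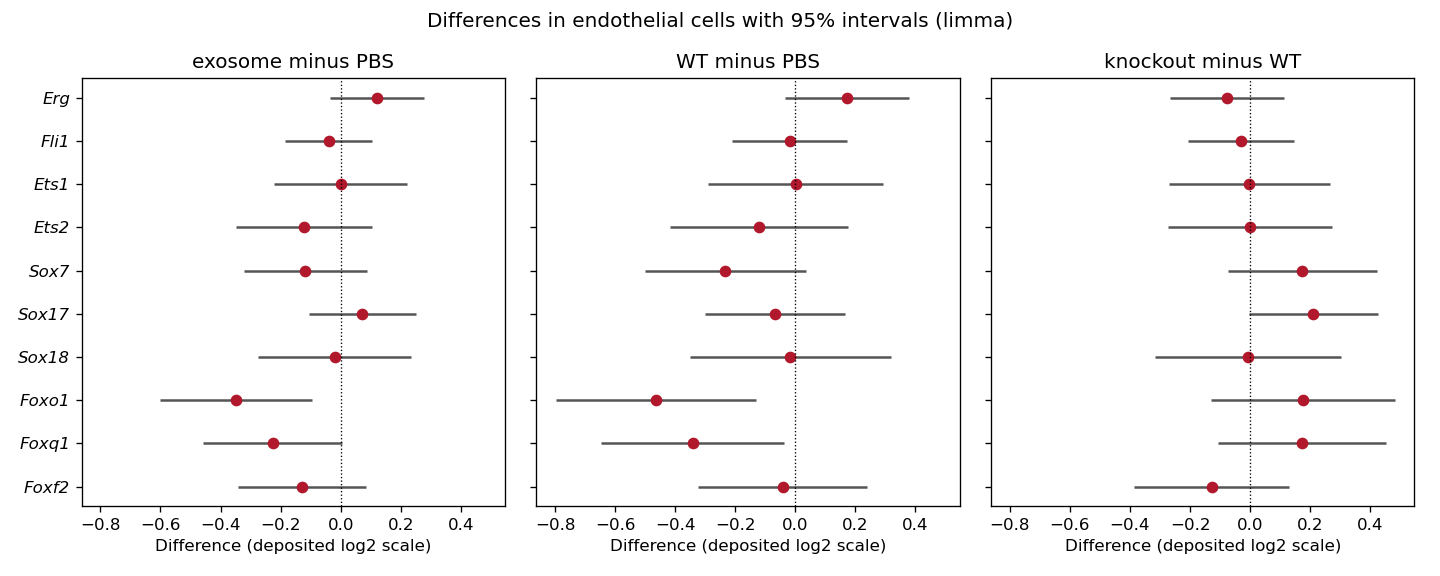
Differences of the 10 factors in endothelial cells on the deposited log2 scale (horizontal axis), with points for the limma estimate and bars for the 95% interval, in a panel per comparison. Intervals leave 0 for Foxo1 in exosome minus PBS and for Foxo1 and Foxq1 in WT minus PBS before adjustment.

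Per kilobase of exon, the order of levels in PBS endothelial cells (mean ± SD, n = 3) was led by Sox18 at 4921 ± 357, Sox7 at 4769.5 ± 884 and Ets1 at 4025 ± 466 normalised counts per kb. These 3 overlapped as neighbours. Foxf2 followed at 2723 ± 694, below all Ets1 values, then Foxo1 at 1256 ± 356, Ets2 at 1168 ± 311, Foxq1 at 1063 ± 302 and Sox17 at 896 ± 98.5. Of those, Foxf2 stood clear above Foxo1, while Foxo1, Ets2, Foxq1 and Sox17 overlapped as neighbours. The exon length used for Foxq1, 4843 bases, came from a different annotation and exceeds the gene's printed span of 31558170 to 31560976. A shorter length would raise its level per kb, so the place of Foxq1 in this order is uncertain. Fli1 at 629.9 ± 70.4 and Erg at 333 ± 4.53 normalised counts per kb closed the order, each clear of its upper neighbour. The small SD of Erg may understate its spread, as given above.

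The factors differed in how much they varied over the 10 endothelial libraries. Foxq1 spread 6.72-fold between its lowest and highest library, with a coefficient of variation of 45.5%, and Foxo1 3.41-fold with 42.4%. Erg spread 3.60-fold with 39.7%, and Sox7 1.72-fold with 20.6%. The median coefficient of variation of tested genes was 51.1%, so all 10 factors varied less than that. The tested genes include all levels from a mean of 100 normalised counts, and genes of like level were not compared. Counting error in the lowest library of each factor was 0.5 to 3.43% by the estimated reads, which leaves out preparation. Foxo1 and Foxq1 had the most similar profiles of any pair of the 10, with a mean absolute difference of 0.435 SD over 10 libraries after scaling each profile to mean 0 and SD 1, and Fli1 and Foxf2 followed at 0.508 SD. By the same measure the nearest gene in the table was Rock2 for Foxo1 (0.249 SD), Phc1 for Foxq1 (0.246 SD), Ypel2 for Foxf2 (0.282 SD) and Ccdc124 for Erg (0.262 SD). It was Otud3 for Fli1 (0.358 SD), Atg2b for Ets1 (0.304 SD), Lrrc58 for Ets2 (0.273 SD), Rybp for Sox7 (0.294 SD), Glo1 for Sox17 (0.298 SD) and Tmem185b for Sox18 (0.199 SD). Over 10 libraries some gene of a table this size lies near any profile.

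**Figure D4:**
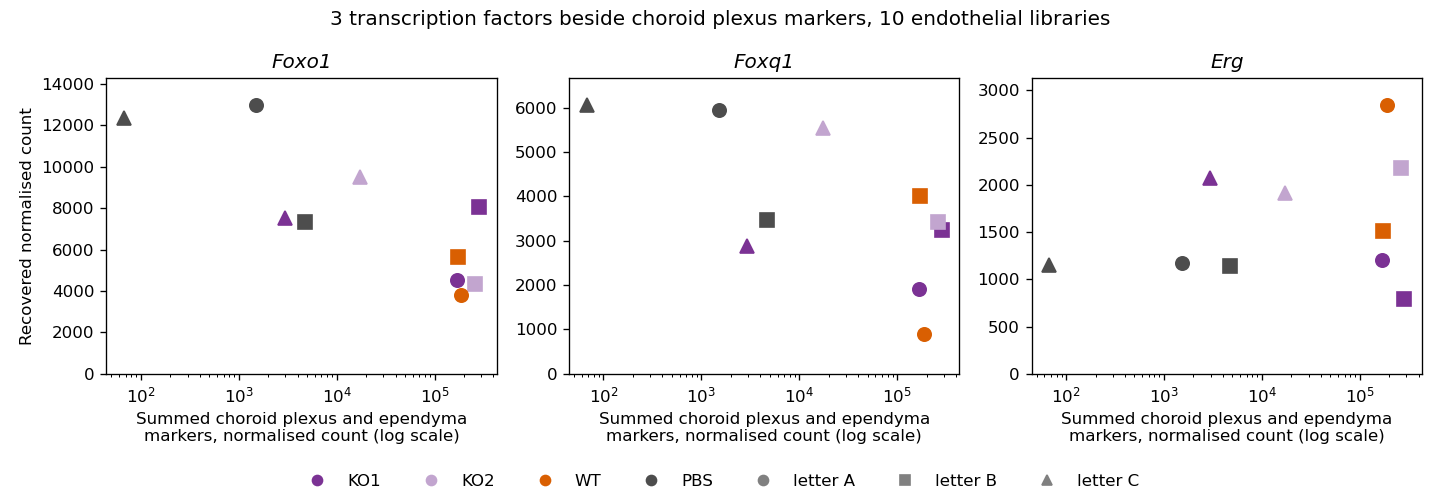
Recovered normalised counts of Foxo1, Foxq1 and Erg (vertical axes) against the summed choroid plexus and ependyma markers (horizontal log axis) in the 10 endothelial libraries, coloured by group and shaped by letter. The 5 exosome libraries with sums of at least 168350 hold 3803 to 8067 of Foxo1, and KO1 C and KO2 C, with lower sums, hold 7529 and 9502.

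In microglia 4 of the 10 factors passed the filter, namely Ets2, Ets1, Fli1 and Foxo1, which all have known roles outside endothelium. The 2 tables were normalised separately, so the levels are set side by side without a test. Ets2, also a macrophage factor, measured 5316, 5017 and 2793 normalised counts in KO1 A, B and C, 4825, 4477 and 2806 in KO2, and 5556, 5672 and 3775 in WT, against 3743 and 3911 in PBS A and B. Per kb it averaged 662 in PBS microglia, where PBS endothelial cells held 1168. Ets1 measured 728, 888 and 1087 in KO1, 437, 253.5 and 628 in KO2, and 1398, 966 and 893.6 in WT, against 1485 and 1018 in PBS. All 3 KO2 libraries of Ets1 lay below all WT libraries, as in 3.89% of tested genes, and below both PBS libraries, as in 9.85%, while KO1 overlapped both groups. The Ets1 difference for knockout minus WT was -0.22 (SE 0.096, limma adjusted p = 0.9995) and for exosome minus PBS -0.22 (SE 0.106, limma adjusted p = 0.855).

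Fli1, which also works in blood cells, measured 404 to 1207 normalised counts in the 6 knockout libraries of microglia, 449.6 to 1389 in WT and 629 to 1281 in PBS. Foxo1 measured 337 to 1042 in knockout libraries, 330.0 to 894 in WT and 248 to 967 in PBS. Both overlapped across all groups. Foxo1, the factor with the most marked difference in endothelial cells, had a microglial difference for exosome minus PBS of 0.05 (SE 0.138, limma adjusted p = 0.982), and whether the cell types differ was not tested. Among the 4 factors 0 were called in each microglial comparison, against 0.0% of 8913 genes in each. At an unadjusted p under 0.05 the factors counted 0 for exosome minus PBS (5.82% of all genes), 0 for WT minus PBS (5.24%) and 1, Ets1, for knockout minus WT (3.15%).

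The other 6 were near 0 in microglia. Foxq1 was at 0 in all 11 libraries, Erg reached at most 8.53 normalised counts, Sox17 5.64 and Sox7 17.2. Sox18 reached 103.7 in KO2 A and Foxf2 85.8 in KO1 A, and neither passed 5 in any other microglial library. Microglial values below a mean of 54.3 are approximate. In the microglial libraries the sum of the 10 endothelial markers lay between 542 and 1299 normalised counts.

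**Figure D5:**
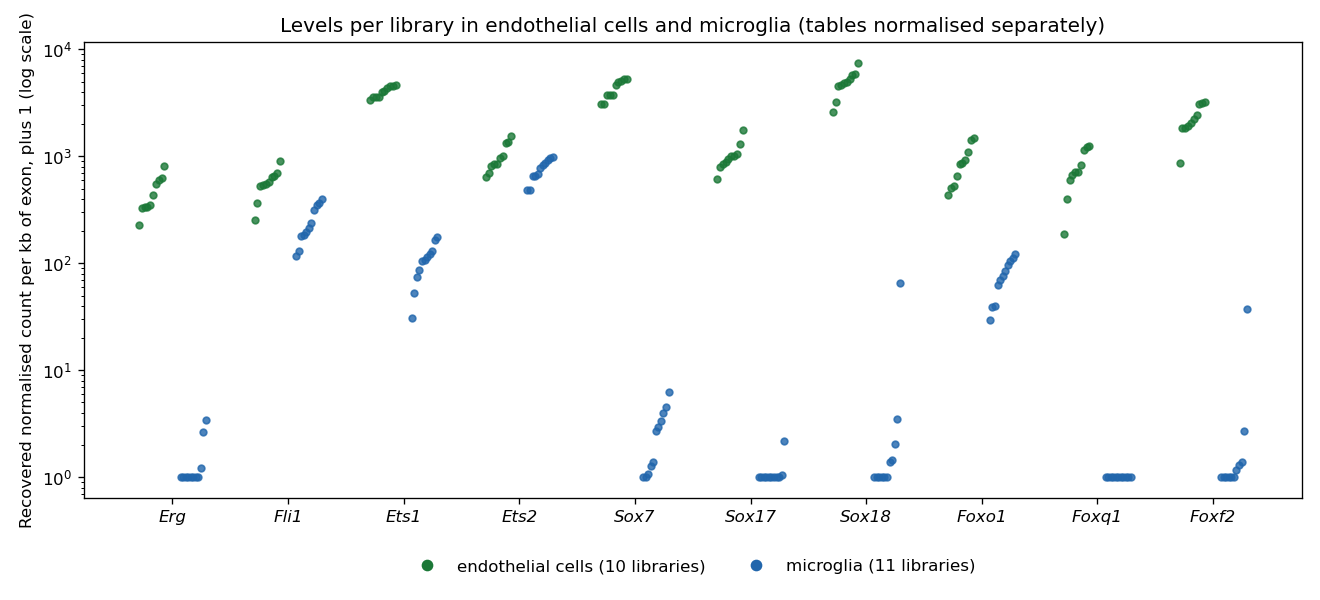
Recovered normalised count per kb of exon, plus 1, on a log axis, for each factor in the 10 endothelial (green, left) and 11 microglial libraries (blue, right), each point a library. Ets2, Ets1, Fli1 and Foxo1 are present in both cell types, and Foxq1 is at 0 in every microglial library. The endothelial Foxq1 values rest on an exon length longer than the printed span of the gene and may be too low.

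The wider programmes that these factors are known to drive were described through lists, in endothelial cells unless stated. The lists were chosen with earlier results of these data known, so their counts are not independent findings. For exosome minus PBS, 53.2% of all tested endothelial genes were below 0 (median -0.0079), and each list count stands beside that share. No gene of the 9 lists was called by limma in any comparison of either cell type. The authors' deposited table of the likelihood ratio test, which asks for any difference among the groups and not for exosome minus PBS, lists 8 genes of these lists in endothelial cells and 7 in microglia, and none of the 10 factors. Of 25 tested ETS target genes 12 were above and 13 below 0 for exosome minus PBS (median -0.02, all genes -0.0079). The 3 with the smallest p were Dll4, a Notch ligand, at -0.44 (SE 0.11, limma adjusted p = 0.386), Esam, a junction adhesion molecule, at -0.40 (SE 0.108, limma adjusted p = 0.432), and Kdr, the main VEGF receptor, at -0.40 (SE 0.125, limma adjusted p = 0.480). Dll4 measured 14350 to 24120 normalised counts in knockout libraries and 14060 and 22780 in WT libraries, against 25750 to 36780 in PBS. Every exosome library thus lay below every PBS library, as in 1.35% of all tested genes. Dll4 was named for its small p in this comparison, so this adds no separate support. In the authors' deposited table Dll4 is listed with adjusted p = 8.60e-07, Esam with 0.000638 and the SOXF target Efnb2 with 0.00713. The authors' deposited table also lists Pdk4 of the FOXO targets with adjusted p = 0.000711, the barrier genes Abcg2, Abcb1a and Ocln with 2.235e-07, 0.00915 and 0.0408, and Ptgs2 with 4.34e-07. Abcg2 had a low mean of 222.9 normalised counts, against 7387 for Abcb1a and 4012 for Ocln. Their log2 fold changes there, of a contrast that is not named, were -5.08, 0.82 and 1.62, so the signs differed.

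Of 18 tested SOXF target genes 6 were above and 12 below 0 (median -0.11), led by Dll4, Kdr and the receptor gene Notch1 at -0.23 (SE 0.084, limma adjusted p = 0.569). Of 19 tested FOXO target genes 7 were above and 12 below (median -0.06). Pik3ip1, an inhibitor of PI3 kinase, was at -0.16, the factor gene Klf6 at -0.22 and cyclin D1 (Ccnd1), which FOXO factors repress, at 0.23, with limma adjusted p = 0.713, 0.731 and 0.803. As the list includes a repressed gene, its count and median give no direction of FOXO activity. In exosome libraries Pik3ip1 ran between 0 and 371 normalised counts and Ccnd1 between 360 and 6122, against 306 to 342.5 and 1171 to 2904 in PBS. Of 19 tested genes of the brain barrier programme 1 was above and 18 below (median -0.14), where 53.2% of all tested genes were below 0 (median -0.0079). These included the glucose transporter Slc2a1 at -0.45 (SE 0.126, limma adjusted p = 0.432), the lactate transporter Slc16a1 at -0.45 (SE 0.094, limma adjusted p = 0.383) and the Wnt target Apcdd1 at -0.35 (SE 0.084, limma adjusted p = 0.383). In the same comparison 8 of 8 tested choroid plexus and ependyma markers were above 0 and 8 of 10 endothelial markers below, and their part in the barrier values was not tested. Slc2a1 measured 39440 to 62420 normalised counts in exosome libraries, against 65590 to 79680 in PBS libraries, without overlap, as in 1.35% of all tested genes. Slc2a1 was named for its small p in this same comparison, so the lack of overlap adds no separate support. Of 14 endothelial activation genes 11 were above and 3 below 0 (median 0.30). Ptgs2, the inducible prostaglandin synthase, was at 0.83 (SE 0.18, limma adjusted p = 0.383), and Vcam1, a leukocyte adhesion receptor, at 0.50 (limma adjusted p = 0.658).

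Other regulators gave mixed signs. Of 20 tested further endothelial transcription factors 5 were above and 15 below 0 (median -0.10). Among them Id1 and Id3, BMP-responsive inhibitors of helix-loop-helix factors, were at -0.26 and -0.27 (limma adjusted p = 0.432 and 0.504), and the repressor Bcl6b was at 0.29 (limma adjusted p = 0.512). Of 11 tested other ETS genes 5 were above and 6 below, with Elf2 at -0.16, Etv5 at 0.22 and Elk3 at 0.16. Of 14 tested other forkhead genes 4 were above and 10 below, with Foxn2 at -0.22, Foxk2 at -0.15 and Foxl2 at -0.08. Of 3 tested other SOX genes 2 were above and 1 below, with Sox4 at 0.20, Sox13 at 0.05 and Sox9 at -0.0033. The limma adjusted p of these 9 genes ran between 0.611 and 0.997.

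Promoters of 4 of the 10 factors, Erg, Ets2, Foxo1 and Foxf2, were in the RefSeq table for GRCm38.p6, each as 250 bases before and 50 after the start of a transcript. The other 6, Fli1, Ets1, Sox7, Sox17, Sox18 and Foxq1, had no entry. Sequences were searched on both strands for the ETS motif CGGAAG, the forkhead motif TGTTTAC and the SOX motif AACAAT, which 16.9%, 3.65% and 10.7% of the 32851 promoters in the table hold. Shown are Foxo1 (chr3:52268087-52268386, plus strand) and 1 of 3 Erg starts (chr16:95459299-95459598, minus strand), the factors without overlap between WT and PBS, and Foxf2 (chr13:31625566-31625865, plus strand). The Erg start shown was picked because it holds a motif match, unlike the other 2. Capitals mark a motif match on either strand.
Foxo1: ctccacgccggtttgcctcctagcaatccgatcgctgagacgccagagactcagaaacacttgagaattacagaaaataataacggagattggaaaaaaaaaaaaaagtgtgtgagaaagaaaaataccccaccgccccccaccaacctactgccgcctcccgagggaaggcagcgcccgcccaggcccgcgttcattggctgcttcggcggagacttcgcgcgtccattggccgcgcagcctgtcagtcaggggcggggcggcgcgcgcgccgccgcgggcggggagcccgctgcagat
Erg: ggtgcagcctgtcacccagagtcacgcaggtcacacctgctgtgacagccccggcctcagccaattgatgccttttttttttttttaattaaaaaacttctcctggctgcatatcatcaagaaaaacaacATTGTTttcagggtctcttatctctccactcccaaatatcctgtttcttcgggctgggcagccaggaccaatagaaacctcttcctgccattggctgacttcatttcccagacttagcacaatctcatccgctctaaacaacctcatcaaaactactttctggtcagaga
Foxf2: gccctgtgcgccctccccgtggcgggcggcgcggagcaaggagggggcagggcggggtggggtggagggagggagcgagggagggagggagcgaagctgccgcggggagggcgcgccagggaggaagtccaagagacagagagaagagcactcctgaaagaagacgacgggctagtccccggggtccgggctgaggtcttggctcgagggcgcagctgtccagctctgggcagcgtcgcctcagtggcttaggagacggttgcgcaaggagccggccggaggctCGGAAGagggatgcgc
Foxo1 and Ets2 held none of the 3 motifs in the window, Foxf2 held 1 ETS match at base 285 of its window, and the Erg start shown held 1 SOX match at base 131. The other 2 Erg starts held no match. These matches describe letters in the window and are not evidence of binding. Foxo1 and Foxf2 windows were 61.3% and 71.3% G or C, against 46.0% in the Erg window shown and 50.3% and 37.3% in the other 2 Erg windows.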

How the data were processed

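RNA of sorted endothelial cells and microglia was sequenced. The deposited tables, 1 per cell type, give variance-stabilised log2 values of 20555 genes, and genes without reads sit at 13.2814 (endothelial) or 9.88926 (microglia). FastQC 0.11.7, Trimmomatic 0.38, Salmon 0.10.0, DESeq2 1.18.1 and GRCm38.p6 are named in the submitters' processing notes, with no role or order. From a likelihood ratio test of theirs the authors deposited further columns: p-values, a signal (the mean normalised count), log2 fold changes, and 2 scores (the test statistic and an error).

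Normalised counts were recovered from the deposited log2 values: in endothelial cells by the closed inverse (recovered over authors' mean 1.0000 over 362 genes), in microglia by a monotone curve through 238 means (largest held-out error 0.988%, lowest mean 54.3). Endothelial reads were estimated from the step of low values. Exon lengths came from GENCODE and gene positions from RefSeq, and for Foxq1 the exon length exceeds the span between those positions.

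The test was limma 3.58.1 (R 4.3.3) with a mean-variance trend, applied to the log2 values as deposited, 1 fit per cell type, with Benjamini-Hochberg adjustment at 0.05 over 9454 endothelial and 8913 microglial genes with a mean of at least 100 recovered normalised counts. The contrasts were the mean of the WT, KO1 and KO2 means minus PBS, WT minus PBS, and the averaged KO1 and KO2 means minus WT. All 10 factors are named. Of each other list up to 3 genes are named, those with the smallest p for exosome minus PBS in endothelial cells, with any gene called and the nearest profile of each factor; 1 gene under this rule is not reported here. The factors and lists were chosen with earlier results of these data known. The alternatives tried were other filters, log2 of the recovered count plus 10 or 100, median centring, a replicate block, and fits without letter C, without the exosome libraries lettered B, and without each library. The fit was tested on simulated data.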

Additional observations from a re-analysis of the deposited data

How the results depend on the processing

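No factor was called under any setting run, and the lowest adjusted p of a factor was 0.123 (limma). Of 42 differences of a factor, 22 kept their sign throughout. In endothelial cells (exosome minus PBS, WT minus PBS, knockout minus WT) 0, 1 and 2 genes of the whole table were called. Without a filter these were 26, 9 and 6; with log2 of the recovered count plus 10, WT minus PBS gave 3 and knockout minus WT 10. With the filter of a mean at least 1 above the floor, with the replicate block and without the exosome libraries lettered B, WT minus PBS and knockout minus WT each gave 0. Without letter C exosome minus PBS gave 1 and knockout minus WT 0. In microglia, where 0 genes were called, exosome minus PBS gave 1 without a filter, 3 and 2 with log2 of the count plus 10 and plus 100, 34 with the replicate block and 4 without letter C, and WT minus PBS gave 1 without a filter, 2 with log2 plus 100, 26 with the block and 3 without letter C. Leaving out 1 library gave 0 to 2, 0 to 4 and 0 to 8 calls in endothelial cells and 0 to 1, 0 to 0 and 0 to 0 in microglia, and the cause was not tested. Exosome minus PBS gave 2 without KO1 C and 1 without PBS B. WT minus PBS gave 4 without KO1 C, 2 without WT B and 0 without KO2 B, KO2 C, WT A or any PBS library. Knockout minus WT gave 8 without WT B, 1 without any KO1 library and 0 without KO2 B, WT A or any PBS library. Microglial exosome minus PBS gave 1 without KO2 B, KO2 C or PBS A. Signs of small differences turned. In exosome minus PBS, Ets1 was -0.00087 and -0.00085 with log2 plus 10 and plus 100 and -0.011 with median centring, and Sox18 0.068 without letter C. In WT minus PBS, Ets1 was -0.0076 with centring, -0.012 with the replicate block and -0.0029 without letter C, and Fli1 and Foxf2 were 0.014 and 0.10 without the exosome libraries lettered B. In knockout minus WT, the replicate block and the fit without letter C gave 0.035 and 0.034 for Ets1 and 0.13 and 0.16 for Sox18, and Ets2 was -0.027 and -0.026 with log2 plus 10 and plus 100 and -0.0026 with centring. In microglia Fli1 WT minus PBS was -0.021, -0.011 and -0.0019 with log2 plus 10, plus 100 and centring, and Foxo1 knockout minus WT -0.12 without letter C. Leaving out 1 library turned the sign of further differences, given with their ranges. For endothelial exosome minus PBS these were Ets1 (-0.054 to 0.059), Sox18 (-0.074 to 0.037). For endothelial WT minus PBS these were Ets1 (-0.12 to 0.12), Fli1 (-0.052 to 0.014), Foxf2 (-0.19 to 0.10), Sox17 (-0.16 to 0.023), Sox18 (-0.038 to 0.0047). For endothelial knockout minus WT these were Erg (-0.18 to 0.026), Ets1 (-0.12 to 0.11), Ets2 (-0.066 to 0.048), Fli1 (-0.070 to 0.0081), Foxf2 (-0.27 to 0.017), Foxq1 (-0.062 to 0.41), Sox18 (-0.086 to 0.080). For microglial exosome minus PBS these were Fli1 (-0.23 to 0.094), Foxo1 (-0.17 to 0.26). For microglial WT minus PBS these were Ets1 (-0.18 to 0.028), Fli1 (-0.15 to 0.17), Foxo1 (-0.17 to 0.25). For microglial knockout minus WT these were Foxo1 (-0.084 to 0.079). The letters were not treated as pairs: 7 of 12 endothelial and 8 of 15 microglial same-letter pairs had a correlation of deviations over 0.1, and 9 of 10 and 10 of 11 libraries correlated best with their own letter. Counting error of the endothelial factors was at most 3.43%, and microglial read depth is unknown.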
